A study of Rattus norvegicus with 24 samples.

Results

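The 5 genes described here are Acsm1, Acsm2, Acsm3 and Acsm5, which encode acyl-CoA synthetases for medium-chain acids, and Glyat, which encodes glycine N-acyltransferase. They were named as a list, out of 14217 measured genes, and the list was chosen on measured values: Acsm1 and Acsm5 were lower with all 4 drugs in these same arrays. Their difference between treated and control arrays is therefore given as a description, and calls of the fit for these genes are not read as a test. Each gene had a single probe set under the platform annotation, 1384499_at for Acsm1, 1370436_at for Acsm2, 1383303_at for Acsm3, 1377407_at for Acsm5 and 1391652_at for Glyat.

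The cells were primary rat hepatocytes held in a collagen sandwich, a culture that helps them keep liver functions. The sources used here give no strain, sex or animal. For 24 h they received benzylpiperazine (BZP) at 625 µM, trifluoromethylphenylpiperazine (TFMPP) at 35 µM, methoxyphenylpiperazine (MeOPP) at 522 µM or methylenedioxybenzylpiperazine (MDBP) at 467 µM. Each dose was the EC20 of its drug, the concentration with an effect of 20 percent, so the doses differed in µM. The controls received 0.1 percent DMSO. Each drug had 3 treated arrays, and every treated array had a DMSO array named as its own control, which gave 12 pairs. Values are log2 expression after RMA, in which a difference of 1 is a 2-fold change.

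Medium-chain acyl-CoA synthetases sit in the mitochondrial matrix and join an acid such as butyrate, octanoate or benzoate to coenzyme A. Glyat then passes the acyl group to glycine, which frees the coenzyme A and yields an acylglycine that the kidney can excrete. Liver is a main site of this glycine conjugation, and hippurate, made from benzoate, is its best known product. Acyl-CoA made by the synthetases can also enter beta-oxidation.

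In RefSeq's GRCr8 annotation Acsm5, Acsm2, Acsm1 and Acsm3 lie in this order on the same strand of chromosome 1. Glyat lies elsewhere on that chromosome. Promoter windows of 250 bases before and 50 after the annotated start were found for these 4 Acsm genes. Those of Acsm1 and Acsm5, the pair on which the list was chosen, are shown here 5′ to 3′, with matches to the searched motifs in capitals. The Acsm1 window is chr1:183416802-183417101 and the Acsm5 window chr1:183302259-183302558, both on the plus strand of GRCr8.

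Acsm1: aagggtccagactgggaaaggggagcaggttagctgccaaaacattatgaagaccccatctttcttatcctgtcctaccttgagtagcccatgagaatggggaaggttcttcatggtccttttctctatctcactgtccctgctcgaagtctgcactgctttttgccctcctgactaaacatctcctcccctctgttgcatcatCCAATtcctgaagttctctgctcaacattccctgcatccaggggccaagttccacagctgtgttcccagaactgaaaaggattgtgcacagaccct

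Acsm5: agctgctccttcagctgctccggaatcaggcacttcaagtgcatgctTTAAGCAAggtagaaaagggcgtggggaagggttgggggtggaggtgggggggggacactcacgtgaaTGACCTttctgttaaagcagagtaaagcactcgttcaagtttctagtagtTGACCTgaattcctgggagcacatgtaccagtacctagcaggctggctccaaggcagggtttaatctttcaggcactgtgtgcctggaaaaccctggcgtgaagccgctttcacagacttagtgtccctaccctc

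The 6 motifs, searched on both strands, were the TATA box, searched as TATAAA, the CCAAT box, a nuclear receptor half-site as AGGTCA, an HNF4-type site as CAAAGTCCA, an HNF1 half-site as GTTAAT and a C/EBP-type site as TTGCNNAA. The Acsm1 window held 1 CCAAT, starting 46 bases before the start site, and no other match. The Acsm5 window held AGGTCA at 2 places on the minus strand, from 135 and 85 bases before the start, and TTGCNNAA on the minus strand from 203 bases before it. In the Acsm3 window there were 3 matches to CCAAT, 1 to AGGTCA and 1 to GTTAAT. None of the 6 motifs was found in the Acsm2 window. Among all 33469 windows of this length, CCAAT was in 37.5 percent, AGGTCA in 16.2 percent, TATAAA in 14.2 percent, TTGCNNAA in 10.6 percent, GTTAAT in 7.45 percent and CAAAGTCCA in 0.391 percent. No motif was shared by all 4 windows, and the 2 printed windows shared none.

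Array medians differed little, between 4.45 and 4.52. Their defining hepatocyte markers were bright, with a mean over the 8 measured markers of 11.6 to 12.4 in treated arrays and 12.2 to 12.7 in DMSO arrays. Of the 8 markers 5 were lower with the drugs and 3 did not pass the test, where 11.9 percent of all genes were lower and 18.0 percent higher. Cyp2e1, a cytochrome P450, changed by -1.49 ± 0.11 and Asgr1, a hepatocyte surface receptor, by -0.84 ± 0.06 (SE, n = 12 pairs), both lower in 12 of 12 pairs. Albumin (Alb) changed by -0.01 ± 0.04, at a mean level of 14.1 that is close to the highest value of the arrays. Markers of Kupffer cells and leukocytes were lower in 4 of 7 genes and higher in 1 (Cd68), and their mean level was 3.87 to 5.14 in treated arrays and 3.99 to 5.40 in DMSO arrays. Of 6 stellate cell markers 1 (Col3a1) was lower, and no sinusoidal endothelial or cholangiocyte marker passed the test, with median changes of -0.04 and -0.06 (1 of 5 and 0 of 4 at an unadjusted limma p under 0.05). Of all 14217 genes 5796 had an unadjusted limma p under 0.05. The part of other cells in the results below was not tested. In bulk cultures fewer hepatocytes and less RNA per hepatocyte cannot be told apart.

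The DMSO arrays fell into 5 sets by their correlation, 0.9943 to 0.9971 within a set and 0.9622 to 0.9919 between sets, called preparations here although the labels name no such batch. Preparation 1 held the first pair of all 4 drugs. Pair 2 came from preparation 5 for MDBP and from preparation 2 for the other drugs. Pair 3 came from preparation 3 for BZP and MDBP, and from preparation 4 for MeOPP and TFMPP. The 12 pairs are therefore not fully independent.

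All 5 genes were lower in the treated arrays when the 4 drugs were averaged. The fit called 5 of 5 lower, where 9.85 percent of all probe sets were called lower. By single drug, 5 of 5 were called under MDBP (3.76 percent of all probe sets), 4 under BZP (4.48 percent), 4 under MeOPP (3.78 percent) and 4 under TFMPP (1.22 percent). Acsm2 was the gene not called with BZP, TFMPP and MeOPP. Leaving out TFMPP pair 1 or pair 2 left 2 called under TFMPP. Without the pair terms, limma called 5 in the mean and 0 with each single drug. In that fit 5 under MDBP, 4 under BZP, 4 under MeOPP and 3 under TFMPP had an unadjusted p under 0.05. For the fits that left out a pair or the pair terms, the share of all probe sets was not counted. Since the list was chosen on this comparison, nothing is read from these counts. The median of the 5 changes was -1.38 in the mean of the drugs, beside 0.01 over all 14217 genes.

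Acsm5, a less studied medium-chain synthetase, showed the lowest values relative to its controls. With BZP its level was 5.42, 4.96 and 6.39 in pairs 1, 2 and 3, against 7.19, 7.17 and 8.81 in the DMSO arrays. With TFMPP it was 5.65, 5.90 and 5.44, against 7.16, 7.21 and 6.66 with DMSO. The treated and DMSO groups of both drugs were clear of each other, and preparation 3 was high on both sides of its BZP pair. With MeOPP the level was 5.57, 4.63 and 4.99, against 7.26, 6.76 and 6.79 with DMSO. With MDBP it was 5.71, 4.85 and 6.30, against 7.15, 7.27 and 8.70 with DMSO. Here too each treated array lay below each DMSO array of its drug. Across all drugs the highest treated array, at 6.39, was below the lowest DMSO array, at 6.66. The share of all probe sets whose groups separate was not counted. Nothing is therefore read from separate groups, here or for the other members.

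The change of Acsm5 was -1.35 ± 0.17 under TFMPP, -1.87 ± 0.17 under MeOPP, -2.13 ± 0.17 under BZP and -2.08 ± 0.17 under MDBP (SE, n = 3 pairs each). The mean of the drugs was -1.86 ± 0.08 (SE, n = 12 pairs), which is 3.63-fold lower. All 12 pairs were lower, by amounts from -2.42 to -1.23. By preparation the mean change ran from -2.42 in preparation 5 to -1.51 in preparation 4.

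Acsm1, the butyrate-activating member of the family, had the next largest change among the synthetases. With BZP its level was 7.04, 7.01 and 8.26, against 8.57, 9.07 and 9.80 with DMSO. With TFMPP it was 7.37, 7.99 and 6.57, against 8.54, 9.19 and 7.81 with DMSO. The BZP groups were clear of each other, while the highest TFMPP array lay above the lowest DMSO array of another pair. With MeOPP the level was 6.51, 7.06 and 6.67, against 8.08, 8.80 and 7.95 with DMSO. With MDBP it was 6.45, 6.91 and 8.04, against 8.00, 9.06 and 9.67 with DMSO. The MeOPP groups were separate, and the MDBP groups overlapped slightly, again across preparations.

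The change of Acsm1 was -1.20 ± 0.13 under TFMPP, -1.53 ± 0.13 under MeOPP, -1.71 ± 0.13 under BZP and -1.77 ± 0.13 under MDBP (SE, n = 3 pairs each). In the mean of the drugs it was -1.55 ± 0.07 (SE, n = 12 pairs; 2.94-fold lower), with all 12 pairs lower. The 3 TFMPP pairs were close together, at -1.17, -1.20 and -1.24, although they came from 3 preparations. The lowest single pair was the second MDBP pair, at -2.15. Preparation means ran from -2.15 in preparation 5 to -1.26 in preparation 4.

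Glyat, the enzyme that transfers the acyl group to glycine, had the widest range of DMSO levels among the 5 genes. It ran from 4.40 to 7.72, with a mean of 4.82 in preparation 2 and 7.51 in preparation 3. With BZP the level was 5.29, 3.86 and 5.52, against 6.34, 5.17 and 7.30 with DMSO. With TFMPP it was 5.23, 3.99 and 4.46, against 6.25, 4.89 and 5.33 with DMSO. The BZP and TFMPP groups overlapped with their DMSO groups, yet each treated array was below its own control. With MeOPP the level was 4.26, 3.57 and 3.53, against 6.05, 4.40 and 5.04 with DMSO. With MDBP it was 5.00, 3.80 and 5.48, against 5.89, 6.16 and 7.72 with DMSO. These groups were clear of each other.

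The change of Glyat was -0.93 ± 0.22 under TFMPP, -1.38 ± 0.22 under MeOPP, -1.38 ± 0.22 under BZP and -1.83 ± 0.22 under MDBP (SE, n = 3 pairs each). The mean over the drugs was -1.38 ± 0.11 (SE, n = 12 pairs; 2.60-fold lower), and all 12 pairs were lower. The probe set lay below the median of its array in 7 of 12 treated arrays, the 3 MeOPP arrays among them, and in 1 of 12 DMSO arrays, so the treated levels are dim. The MDBP pairs were spread widely, at -0.90 in preparation 1, -2.35 in preparation 5 and -2.24 in preparation 3. Over preparations the mean change ran from -2.35 in preparation 5 to -1.01 in preparation 2.

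**Figure D1:**
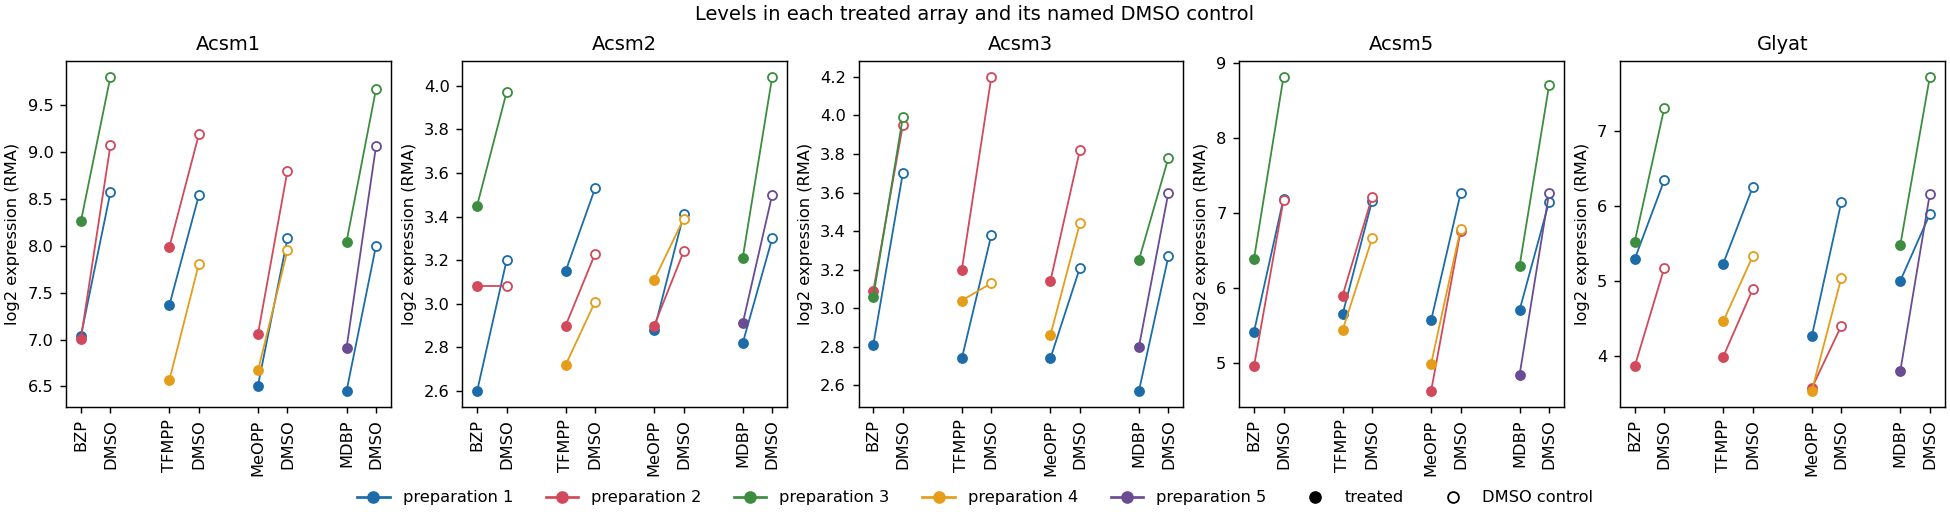
Log2 expression (RMA) of each gene in every treated array (filled) and its named DMSO control (open), joined by a line and coloured by inferred preparation, each panel with its own scale. Acsm5 runs up to 6.39 in the 12 treated arrays and from 6.66 in the 12 DMSO arrays. The share of all probe sets whose groups separate was not counted, and nothing is read from this.

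Acsm3 and Acsm2 were measured by dim probe sets, below the array medians in all 24 arrays, which limits what their differences can show. Acsm3, known in rat as the SA gene, lay at 2.57 to 3.25 in treated arrays (median 2.95) and at 3.13 to 4.20 in DMSO arrays (median 3.65). These ranges overlapped by a little, and within BZP, MeOPP and MDBP the groups did not overlap. Its change was -0.58 ± 0.13 under TFMPP, -0.57 ± 0.13 under MeOPP, -0.89 ± 0.13 under BZP and -0.68 ± 0.13 under MDBP (SE, n = 3 pairs each). The mean over the drugs was -0.68 ± 0.06 (SE, n = 12 pairs; 1.60-fold lower), with all 12 pairs lower. The TFMPP pairs of Acsm3 disagreed in size, at -0.64, -1.01 and -0.09, and without pair 2 the TFMPP change was -0.36.

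Acsm2, whose human relatives activate benzoate and related acids, lay at 2.60 to 3.45 in treated arrays (median 2.90) and at 3.01 to 4.04 in DMSO arrays (median 3.34). The groups overlapped with BZP and TFMPP and did not with MeOPP and MDBP. The change was -0.34 ± 0.11 under TFMPP, -0.38 ± 0.11 under MeOPP, -0.37 ± 0.11 under BZP and -0.64 ± 0.11 under MDBP (SE, n = 3 pairs each). In the mean of the drugs it was -0.43 ± 0.06 (SE, n = 12 pairs; 1.35-fold lower). Of the 12 pairs 11 were lower, and the second BZP pair did not differ, at 0.00. Without that pair the BZP change was -0.56.

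**Figure D2:**
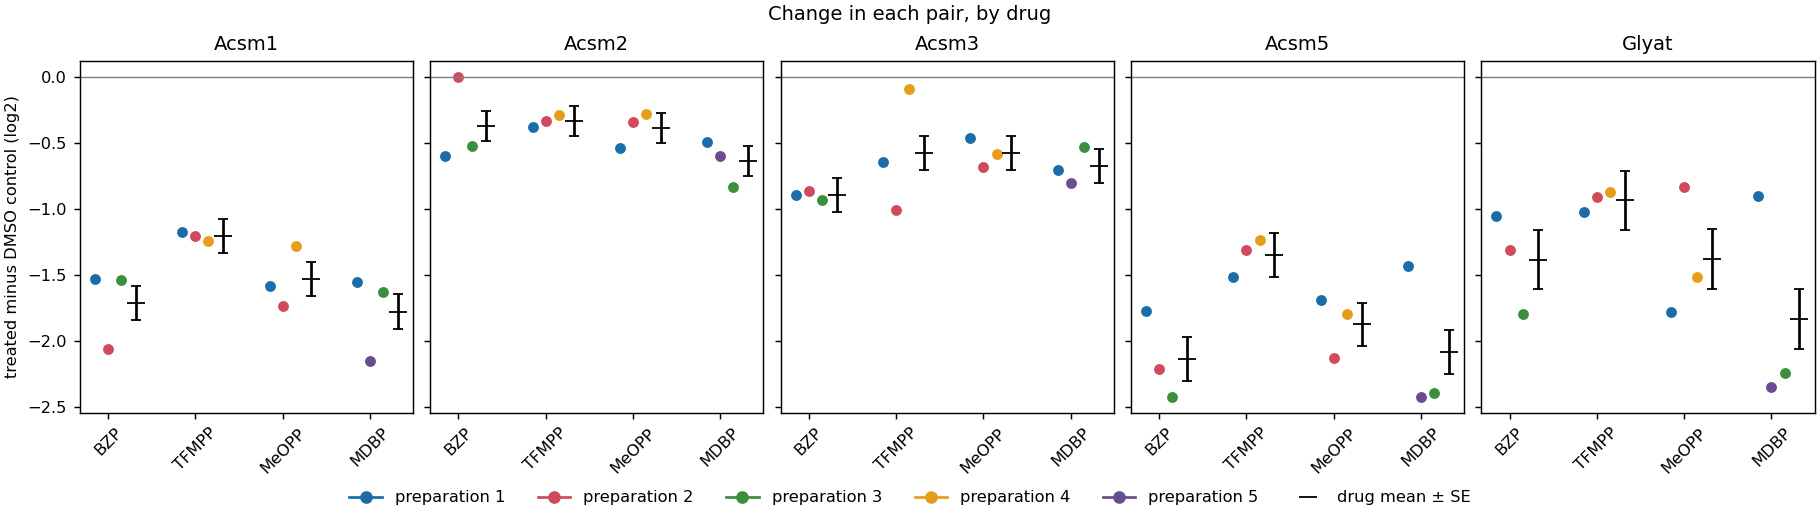
Treated minus DMSO control (log2) in each of the 12 pairs, by drug, coloured by inferred preparation, with the mean and SE of each drug from the fit in black. Acsm5 pairs lie from -2.42 to -1.23 and Acsm1 pairs from -2.15 to -1.17, while 1 Acsm2 pair lies at 0.00.

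Whether the drugs differed in their effect on these genes was tested for each of the 6 drug pairs, at doses that differed in µM but were each the EC20. The list was chosen on the change of Acsm1 and Acsm5 under each drug, so for these 2 genes the tests are not independent of that choice and their differences are a description. In limma with Benjamini-Hochberg adjustment over all probe sets, 0 of 30 tests passed, and the lowest adjusted p was 0.51. At an unadjusted p under 0.05 there were 6, each with TFMPP on one side. Over all probe sets 16 passed for BZP minus TFMPP (0.0515 percent) and 0 (0 percent) for each of the other 5, with 1150 to 2151 at an unadjusted p under 0.05.

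The 6 were found in Acsm1, Acsm5 and Glyat. For Acsm5 the BZP minus TFMPP difference was -0.78 ± 0.23, with a 95% interval from -1.28 to -0.29 (SE). TFMPP minus MDBP was 0.73 for Acsm5 (interval 0.24 to 1.23), 0.57 for Acsm1 (0.18 to 0.96) and 0.90 for Glyat (0.22 to 1.57). These 2 drugs shared only preparation 1, so drug and preparation cannot be told apart in the pooled difference. There TFMPP had the larger change for Acsm5 (-1.51 against -1.43) and Glyat (-1.02 against -0.90), opposite to the pooled values. For Acsm1 it had the smaller one (-1.17 against -1.55). BZP minus TFMPP was -0.51 for Acsm1 (interval -0.90 to -0.12), and TFMPP minus MeOPP was 0.52 for Acsm5 (0.03 to 1.02).

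In BZP and MDBP the piperazine bears a benzyl group, to which MDBP adds a methylenedioxy bridge. For this pair the intervals of BZP minus MDBP were -0.33 to 0.45 for Acsm1, -0.55 to 0.45 for Acsm5 and -0.23 to 1.13 for Glyat. In TFMPP and MeOPP it bears a phenyl group directly, with a trifluoromethyl or a methoxy substituent. Their intervals of TFMPP minus MeOPP were -0.07 to 0.72 for Acsm1, 0.03 to 1.02 for Acsm5 and -0.23 to 1.12 for Glyat. The Acsm5 interval leaves out 0, at a limma adjusted p = 0.895. No interval shows that 2 drugs acted alike.

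The drugs were not spread evenly over the preparations, so the values within a preparation are given beside the pooled ones. Each drug had at most 1 pair in a preparation. Orders of the drugs within a preparation therefore rest on single pairs and were not tested. In preparation 1, which held all drugs, the Acsm5 change was -1.51 under TFMPP, -1.69 under MeOPP, -1.77 under BZP and -1.43 under MDBP. In preparation 2 it was -2.21 with BZP, -1.31 with TFMPP and -2.13 with MeOPP. In preparation 3 it was -2.42 with BZP and -2.39 with MDBP, and in preparation 4 it was -1.23 with TFMPP and -1.79 with MeOPP. For Acsm5 TFMPP thus had a smaller change than BZP and MeOPP in each preparation they shared, but not than MDBP in the one they shared.

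For Acsm1 in preparation 1 the change was -1.17 under TFMPP, -1.58 under MeOPP, -1.53 under BZP and -1.55 under MDBP. In preparation 2 it was -1.20 under TFMPP, -1.73 under MeOPP and -2.06 under BZP. In preparation 3 it was -1.54 under BZP and -1.63 under MDBP, and in preparation 4 it was -1.24 under TFMPP and -1.28 under MeOPP. The TFMPP change of Acsm1 was thus the smallest in each of the 3 preparations that held it. In preparation 4, which held only TFMPP and MeOPP, the gap was smaller than the SE of 0.13 over 3 pairs.

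For Glyat in preparation 1 it was -1.02 under TFMPP, -1.78 under MeOPP, -1.05 under BZP and -0.90 under MDBP. In preparation 2 it was -0.91 under TFMPP, -0.83 under MeOPP and -1.31 under BZP. In preparation 3 it was -1.79 under BZP and -2.24 under MDBP, and in preparation 4 it was -0.87 under TFMPP and -1.51 under MeOPP. Among these single pairs MeOPP had the largest change in preparation 1 and the smallest in preparation 2, there at -0.83 against -0.91 under TFMPP. In preparation 1, the only one they shared, TFMPP stood at -1.02 and MDBP at -0.90, opposite to their pooled difference. These gaps of TFMPP to MeOPP in preparation 2 and to MDBP in preparation 1 are smaller than the SE of 0.22 over 3 pairs. No order of the drugs is read from them.

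**Figure D3:**
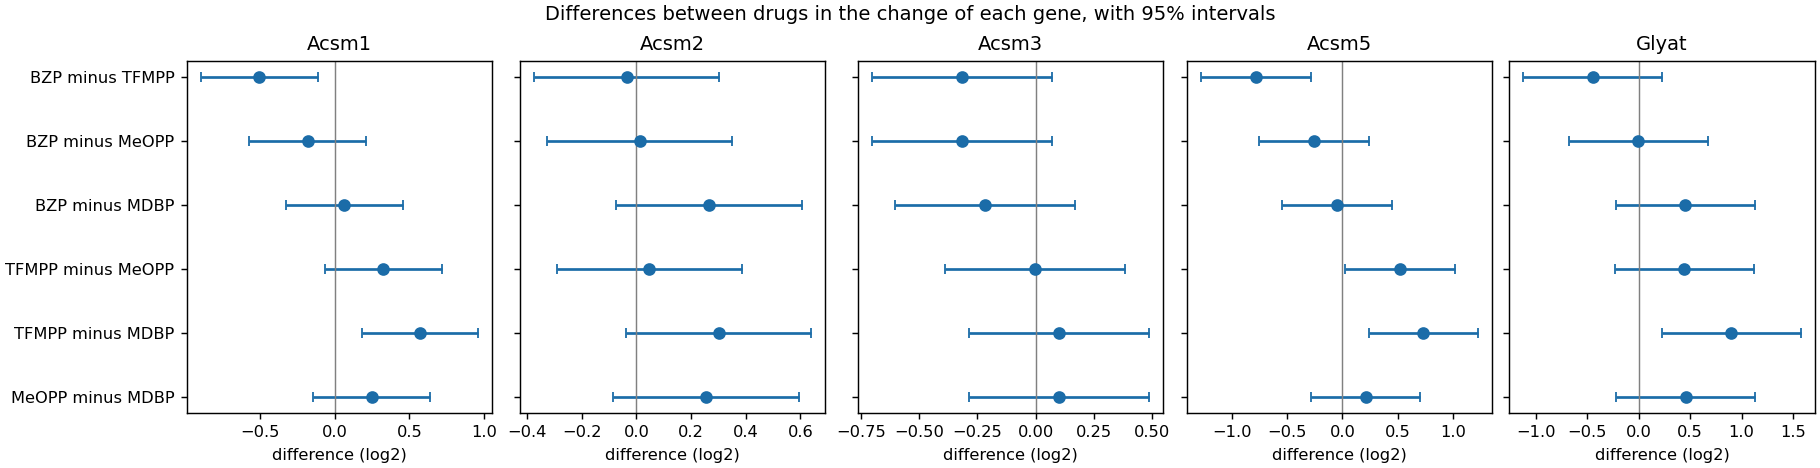
Difference between 2 drugs in the change of each gene (log2, first drug minus second), with 95% intervals from the fit, each panel with its own scale. The intervals of BZP minus TFMPP (Acsm1 and Acsm5), TFMPP minus MDBP (Acsm1, Acsm5 and Glyat) and TFMPP minus MeOPP (Acsm5) leave out 0, and 0 of 30 tests pass after adjustment.

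Genes of the surrounding pathways were counted over 5 lists, with 72 of 80 listed genes measured and none of them members. In the mean of the drugs 40 of the 72 fell and 8 rose in limma at an adjusted p under 0.05, with a median change of -0.21. Over all 14217 genes 11.9 percent fell and 18.0 percent rose, with a median of 0.01. Over all probe sets 9.85 percent fell and 12.5 percent rose. When the pair terms were left out, 14 of the 72 fell and 6 rose. The share of all genes called in that fit was not counted. Its counts, here and by list below, therefore have no background beside them.

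The other genes for joining acyl groups to amino acids were lower in 3 of 3 measured genes of 7 listed, with a median of -0.87. Slc27a5, the bile acid-CoA ligase, fell by 1.27 ± 0.14 (SE, n = 12 pairs; limma adjusted p = 3.98e-06). Baat, which joins bile acyl-CoA to glycine or taurine, fell by 0.87 ± 0.10, and Glyatl2, a relative of Glyat, by 0.82 ± 0.10. Glyatl2 was lower in 12 of 12 pairs and the other two in 11. None of the 3 passed in a fit that left the pair terms out, at limma adjusted p = 0.0663 for Slc27a5, 0.36 for Baat and 0.0675 for Glyatl2.

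Of the other acyl-CoA synthetases, 2 of 16 measured genes fell (12.5 percent), 4 rose (25 percent) and 10 did not pass, with a median of 0.10. These shares are near the 11.9 percent lower and 18.0 percent higher of all genes. Slc27a5 was counted with the conjugation genes instead. Acss3, a mitochondrial synthetase for short-chain acids, fell by 0.96 ± 0.08 (SE, n = 12 pairs; limma adjusted p = 1.9e-07), and Slc27a2, a very long-chain synthetase, by 0.86 ± 0.07. Acsl3, a long-chain synthetase, rose by 0.97 ± 0.08 (limma adjusted p = 4.74e-07), Aacs, which activates acetoacetate, by 0.77 ± 0.10, and Acsf2 by 0.37 ± 0.06. Acsf2 lost its call without the pair terms (limma adjusted p = 0.0681). The fourth gene that rose was Acsl5, a mitochondrial and ER synthetase, at 0.26 ± 0.05. Acsl1, the main long-chain synthetase of liver, stood at 0.17 ± 0.06 (limma adjusted p = 0.0574).

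Genes that supply or use glycine fell in 9 of 16 measured genes and rose in 2, with a median of -0.27. Dmgdh, which turns dimethylglycine into sarcosine, fell by 1.36 ± 0.08 (SE, n = 12 pairs; limma adjusted p = 3.76e-09). Gnmt, which methylates glycine, fell by 1.10 ± 0.07, and Agxt, which makes glycine from glyoxylate, by 1.05 ± 0.07. Gcat, which splits a threonine product to glycine, rose by 0.64 ± 0.06, and Slc6a9, a plasma membrane glycine carrier, by 0.62 ± 0.08 (limma adjusted p = 2.79e-05). For each of these 5 genes all 12 pairs had the same sign. Without the pair terms 4 of the 16 fell.

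Genes of coenzyme A synthesis and breakdown fell in 12 of 21 genes and rose in 2, with a median of -0.20. Vnn1, a pantetheinase, fell by 1.29 ± 0.08 (SE, n = 12 pairs; limma adjusted p = 9.5e-09), and Acot12, a thioesterase for acetyl-CoA, by 0.76 ± 0.06. Acot1, a cytosolic thioesterase with a dim probe set at a mean level of 2.96, fell by 0.92 ± 0.18. Acot9, a mitochondrial thioesterase, rose by 0.43 ± 0.06 and Pank3, a pantothenate kinase, by 0.28 ± 0.05. Without the pair terms 3 fell and 1 rose, and the calls of Acot1 and Pank3 were lost (limma adjusted p = 0.0641 and 0.153).

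For the oxidation of medium-chain and branched acyl-CoA, the RNA of 14 of 16 genes fell and the other 2 did not pass, with a median of -0.48. Hadh, the hydroxyacyl-CoA dehydrogenase, fell by 0.98 ± 0.09 (SE, n = 12 pairs; limma adjusted p = 6.66e-07). Acadm, the medium-chain acyl-CoA dehydrogenase, fell by 0.73 ± 0.06 and Etfb, which takes up its electrons, by 0.69 ± 0.05. Without the pair terms 5 of the 16 fell.

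**Figure D4:**
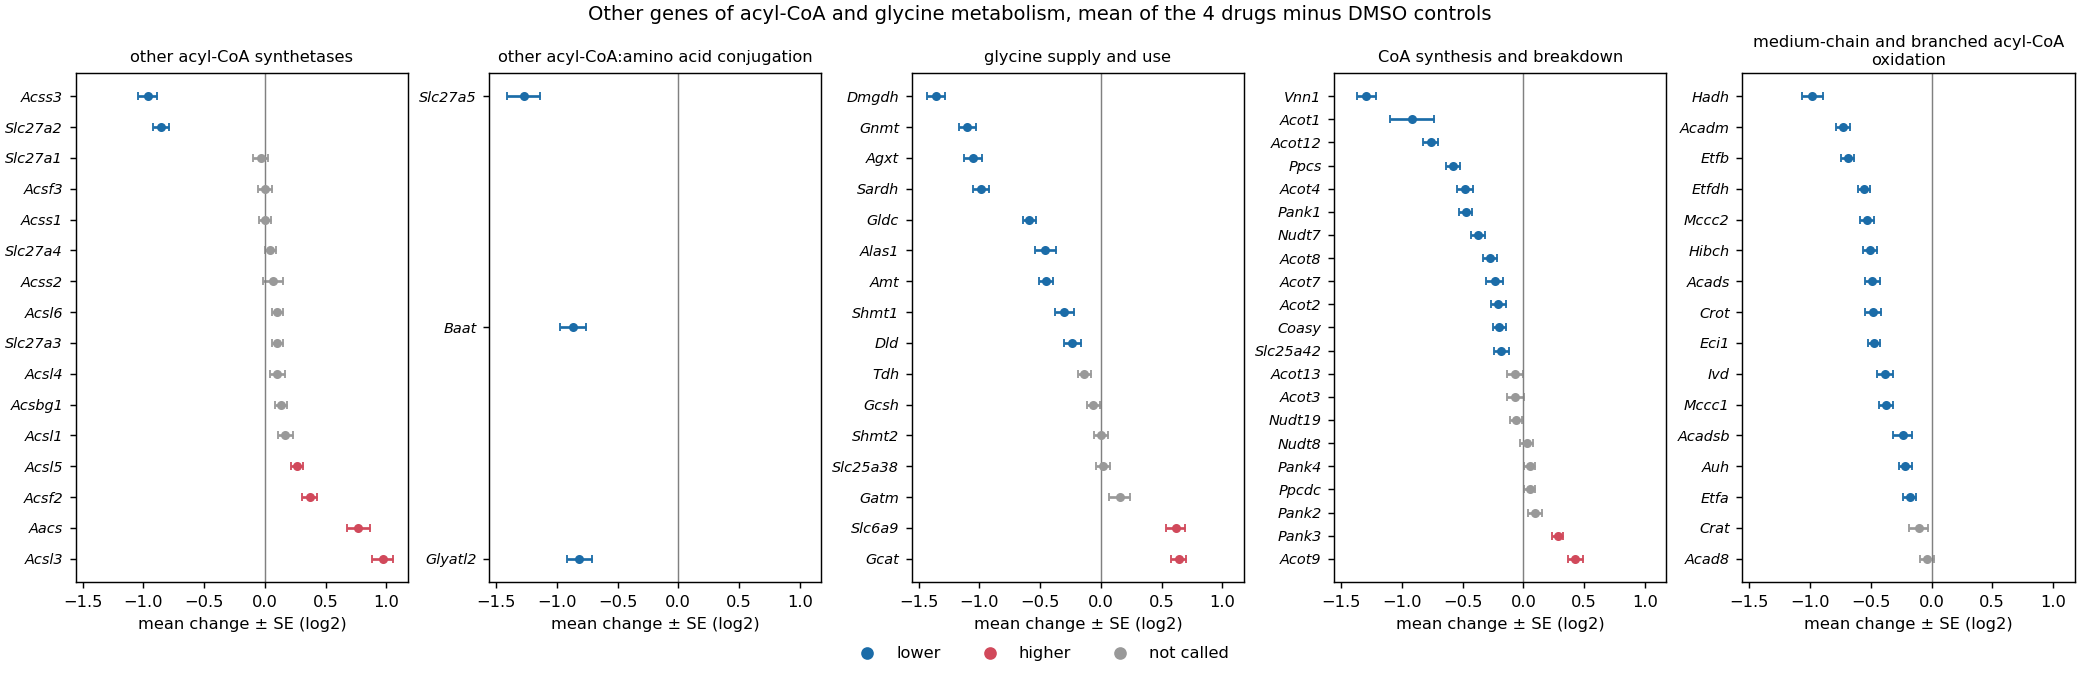
Mean change over the 4 drugs (log2, treated minus DMSO control) with SE for every measured gene of the 5 surrounding lists, coloured by the limma call. Conjugation genes lie at -1.27 to -0.82, while acyl-CoA synthetases run from Acss3 at -0.96 to Acsl3 at 0.97.

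The Acsm genes were also set beside their chromosomal neighbours, the 10 nearest RefSeq genes on each side and those in between. Of 25 such genes 10 were measured, of which 2 fell and 2 rose in limma, counts that are near the 11.9 percent lower and 18.0 percent higher of all genes. RGD1559600, a protein-coding gene with no other name in the tables used here, lies between Acsm2 and Acsm1 on the opposite strand. It fell by 1.17 ± 0.12 (SE, n = 12 pairs; limma adjusted p = 2.09e-06) and was lower in 12 of 12 pairs. Its annotated range overlaps the start of Acsm1, and its mean level of 3.20 was dim. The sources used here do not place its probes, so the 2 overlapping genes were not told apart.

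Thumpd1 and Eri2, which lie between Acsm1 and Acsm3, were not called. The annotated range of Eri2, on the opposite strand, overlaps that of Acsm3. Thumpd1, an RNA-binding protein, stood at 0.00 ± 0.05 and Eri2, an exonuclease, at -0.04 ± 0.09 (SE, n = 12 pairs; limma adjusted p = 0.837 for Eri2). Among genes farther out, Anks4b fell by 0.52 ± 0.09 and Ldaf1, a lipid droplet assembly factor, rose by 0.37 ± 0.05 (limma adjusted p = 4.52e-05). The Anks4b call was lost without the pair terms (limma adjusted p = 0.135). Gprc5b, a dim probe set at a mean level of 2.36, rose by 0.24 ± 0.07 (limma adjusted p = 0.0229), a call lost without the pair terms (adjusted p = 0.189), with 1 value per preparation (0.141) and in 5 of the 12 fits that left out a pair. Umod and Gp2, expressed mainly in kidney and pancreas, stood at 0.06 and -0.06.

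**Figure D5:**
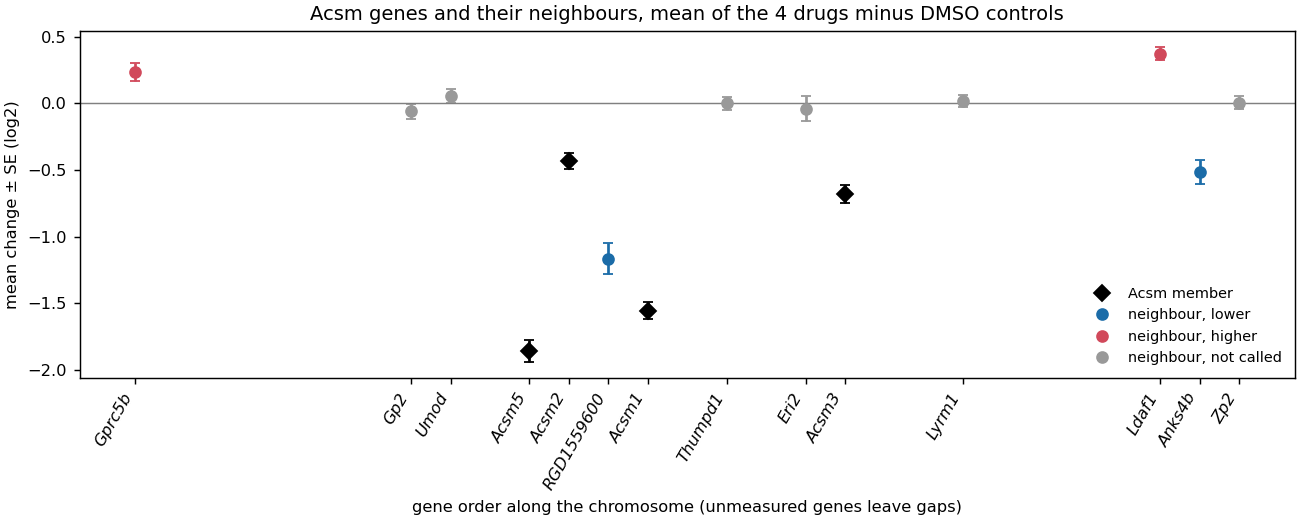
Mean change over the 4 drugs (log2) with SE for the Acsm genes (diamonds) and their measured neighbours (circles, coloured by the limma call), in gene order and not to distance. Thumpd1 at 0.00 and Eri2 at -0.04 lie between Acsm1 at -1.55 and Acsm3 at -0.68.

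Genes with the most similar pattern were sought by the mean absolute difference between their 12 pair changes and those of each member, over the brightest probe set of each gene. For Acsm1 the nearest were Dpyd, the first enzyme of pyrimidine breakdown, at 0.17, then Dmgdh at 0.22 and Kynu, the kynureninase of tryptophan breakdown, at 0.22. For Acsm5 they were Ftcd, of histidine breakdown, at 0.20, Ttc36 at 0.26 and Acox2, a side-chain oxidase of bile acid synthesis, at 0.28. Acsm1 and Acsm5 were each other's nearest members, at 0.33. Other genes lay closer to each of them, which a search over all genes against a few members favours. Nothing is read from this about how alike Acsm1 and Acsm5 are.

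For Acsm3 the nearest were Ceacam1, an adhesion molecule, at 0.16, Acadvl, the very long-chain acyl-CoA dehydrogenase, at 0.17, and As3mt, an arsenite methyltransferase, at 0.19. For Glyat they were C5h1orf210 at 0.27, Enpp2, which makes lysophosphatidic acid, at 0.30, and Aldh1a1, a retinaldehyde dehydrogenase, at 0.31. The 12 genes were lower in 12 of 12 pairs, which the search itself favours. The measure depends on the size of the change as well as its pattern, and the pairs share preparations.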

How the data were processed

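Expression was measured on 24 Affymetrix rat arrays in 8 groups of 3. The deposited values are log2 expression made with RMA, per the submitters' processing notes. The RMA version and chip definition are not given in the sources used here. The values were used as deposited. The table holds 31099 probe sets, of which 57 are Affymetrix controls, and the remaining 31042 entered the tests. The platform annotation gave 1 gene symbol for 20826, several for 436 and none for 9780, and a gene was its brightest probe set. Arrays have no read depth, and their number limits the precision.

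The model (limma 3.58.1, R 4.3.3) took all arrays and had a term for each of the 12 pairs and each of the 4 drugs. It had 8 residual degrees of freedom and 7.66 from the empirical Bayes prior. Tests were two-sided. A call is an adjusted p under 0.05 after Benjamini-Hochberg adjustment across the tested probe sets. The fit was also run on simulated data drawn with independent pairs. These arrays share preparations, so that run cannot show how the sharing affects the calls. Control titles name the treated sample each belongs to, which gave the pairing. Deviations from the group means correlated at 0.612 to 0.802 within all 12 pairs. No label names separate animals or cultures. The p-values therefore measure only how far these samples spread, and that spread may be technical.

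The members and lists were chosen with earlier results of these data known. Named genes were the 5 members, in each list the 3 called genes with the largest change in each direction, all called neighbours, and the 3 genes nearest to each member with a mean change of at least 0.5 in size. As a measure of RNA quality, beta-actin control probe sets at the 3′ and 5′ ends differed by 2.08 to 2.96 in treated arrays and 2.06 to 2.97 in DMSO arrays, and those of Gapdh by 0.22 to 0.65 in treated arrays and 0.21 to 0.53 in DMSO arrays. Promoters came from RefSeq's GRCr8 tables. Plots used matplotlib 3.10.9 under Python 3.11.15.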

Additional observations from a re-analysis of the deposited data

How the results depend on the processing

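The 25 changes of the 5 genes, in the mean and by drug, kept their sign in all 415 recomputed values. All moved by less than the spread between pairs. Little of this could have come out otherwise. Fits without pair terms, with another prior or with bright probe sets only return the same changes. Leaving out a pair does not alter the change under another drug, and moves a mean of 3 pairs by less than their spread. The sign could hardly turn, as Acsm2 in the second BZP pair was the only pair change not below 0. Even so, leaving out pair 2 took Acsm3 under TFMPP to -0.36 and Acsm2 under BZP to -0.56, over 1.5 times from -0.58 and -0.37. The mean over the drugs ran from -1.62 to -1.51 for Acsm1, -1.96 to -1.82 for Acsm5, -1.55 to -1.32 for Glyat, -0.74 to -0.63 for Acsm3 and -0.48 to -0.40 for Acsm2. Averaging probe sets could not alter them, as each gene has 1. The member counts below are not read as a result, since the list was chosen on this comparison. For the alternatives the share of all genes or probe sets called lower or higher was not counted, so these counts have no background. With no replicate block, that is without the pair terms, limma called 5 members lower in the mean but 0 with BZP, TFMPP, MeOPP and MDBP, where 4, 3, 4 and 5 had an unadjusted p under 0.05. The lists then gave 14 lower genes in place of 40, namely 2 of the other acyl-CoA synthetases, 0 of conjugation (2 at an unadjusted p under 0.05), 4 of glycine, 3 of coenzyme A and 5 of acyl-CoA oxidation, with 1 higher for coenzyme A. Of the 25 named genes of the lists and the neighbourhood, 8 lost their call without the pair terms. Beside the Acsm genes 1 fell and 1 rose without the pair terms. With probe sets of a mean log2 value of at least 5, Acsm2 and Acsm3 were not tested, which left 3 members lower in the mean and 3 with MDBP, and 1 lower and 1 higher neighbour. With 1 value per preparation 1 neighbour rose, and 32 list genes fell and 8 rose. Leaving out 1 pair gave 2 to 4 members lower with TFMPP (2 without its pair 1 or 2) and 1 to 2 neighbours higher. Gprc5b lost its call in 5 of these 12 fits, without pair 3 of any drug or pair 1 of TFMPP. No difference between drugs was called in limma in any of the alternatives run, with 0 to 10 at an unadjusted p under 0.05. The neighbour alternatives were added after seeing the data. Dim probe sets limit Acsm2, Acsm3, RGD1559600 and the treated levels of Glyat.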
